A study of Mus musculus with 2 samples.

Results

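The chemokine CXCL12 and the receptors that bind it, CXCR4 and ACKR3, were examined in a pair of mouse cell lines labelled as endothelial. The members were all probe sets assigned to Cxcl12, Cxcr4 or Ackr3 alone, which came to 5 probe sets of 3 genes, out of 18193 genes with a probe set of their own. Cxcl12 had 3 probe sets, and Cxcr4 and Ackr3 had 1 each. The genes were chosen by their signals on these same arrays, so the values below describe them and no test was made on them.

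The SVEC4-10 line comes from an axillary lymph node and was grown in DMEM with 10% FCS. The MS-1 line comes from pancreatic microvasculature and was grown in DMEM with 5% FCS. Both lines carry SV40 large T antigen, which immortalised them. Flasks of both were grown for 3 to 5 days to confluence, with cells used up to passage 5, and total RNA was hybridised to 1 Affymetrix array per line. With no replicate array, no p-value was computed, and line and serum level cannot be told apart. In RNA of a whole culture, fewer cells expressing a gene and less RNA per cell cannot be told apart either.

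CXCL12 is a secreted chemokine that stromal and vascular cells make without an inflammatory stimulus, and it is held on cell surfaces by heparan sulfate. CXCR4 couples to inhibitory G proteins and directs cell migration, whereas ACKR3 is an atypical receptor that recruits arrestins and removes CXCL12 from the surroundings. In vessels, CXCR4 is known from sprouting tip cells and growing arteries, and CXCL12 guides them and holds blood stem cells in the marrow. The Cxcl12 transcript is spliced into several forms that differ at their 3' end.

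The promoters of the 3 genes are shown because both receptor genes had a lower signal in SVEC4-10, while the ligand gene was above background on both arrays. Each holds 250 bases before and 50 after the annotated start, from RefSeq, build GRCm38.p6, read 5' to 3' on the strand of the gene. Capitals mark matches, on either strand, to the GC box GGGCGG, the TATA box TATAAA, the HIF core (ACGTG or GCGTG) and an NRF1 core GCATGCGC. The Cxcl12 promoter lies at chr6:117168285-117168584 on the plus strand, that of Cxcr4 at chr1:128592250-128592549 on the minus strand and that of Ackr3 at chr1:90203730-90204029 on the plus strand.
Cxcl12: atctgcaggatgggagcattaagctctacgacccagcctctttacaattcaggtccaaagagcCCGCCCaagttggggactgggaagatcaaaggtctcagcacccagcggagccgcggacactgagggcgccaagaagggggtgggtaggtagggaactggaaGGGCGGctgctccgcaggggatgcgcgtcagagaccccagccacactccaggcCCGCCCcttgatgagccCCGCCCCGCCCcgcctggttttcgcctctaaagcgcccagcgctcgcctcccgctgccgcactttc
Cxcr4: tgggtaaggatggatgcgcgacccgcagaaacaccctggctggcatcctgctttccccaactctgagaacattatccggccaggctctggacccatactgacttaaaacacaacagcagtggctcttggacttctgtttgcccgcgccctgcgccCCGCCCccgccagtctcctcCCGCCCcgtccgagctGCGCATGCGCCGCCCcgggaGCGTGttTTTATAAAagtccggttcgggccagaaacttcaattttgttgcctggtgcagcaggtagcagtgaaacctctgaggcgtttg
Ackr3: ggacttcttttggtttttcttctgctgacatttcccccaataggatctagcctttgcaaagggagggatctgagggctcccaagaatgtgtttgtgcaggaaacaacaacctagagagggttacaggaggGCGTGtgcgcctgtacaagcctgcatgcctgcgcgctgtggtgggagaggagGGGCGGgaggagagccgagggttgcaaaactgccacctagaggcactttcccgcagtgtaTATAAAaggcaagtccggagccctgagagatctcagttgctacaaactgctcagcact

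The Cxcl12 window held 5 GC boxes, on both strands, and no match to the other motifs. The Cxcr4 window held 3 GC boxes, a HIF core that begins at position -39 from the start, a TATA box at -30 overlapped by one on the other strand at -32, and overlapping NRF1 cores at -59 and -57, which form a palindrome and of which the second shares a base with the GC box at -50. The Ackr3 window held 1 GC box, a HIF core at -120 and a TATA box at -8. Of 32851 promoters of the same length, 35.7% held the GC box, 43.8% the HIF core, 13.6% the TATA box and 2.71% the NRF1 core. There were 20 CpG dinucleotides in the windows of Cxcl12 and of Cxcr4 and 8 in that of Ackr3, against a median of 7 over all promoters. A match describes the letters of these windows and says nothing of binding.

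The deposited values were linear probe set signals, which had been scaled to a 2%-trimmed mean of 150.001 on both arrays. A probe set was taken as above background if its signal exceeded 17.6 in SVEC4-10 or 16.3 in MS-1. These levels are the 95th percentile of 129 probe sets for odorant, pheromone and taste receptors and hair keratin-associated proteins. A log2 ratio is SVEC4-10 over MS-1, with signals under background raised to it, so "at least" marks a fold against background. Among probe sets above background on both arrays, those of one gene differed in their log2 ratio with a spread of 0.48 (SD, 4813 genes). No variation between cultures enters this spread. Of 12583 measured genes, those above background on at least 1 array, 705 (5.60%) were at least 4-fold higher in SVEC4-10 and 528 (4.20%) in MS-1. Of the genes at least 4-fold apart, 57.2% were higher in SVEC4-10, or 35.7% (481 genes higher in SVEC4-10 and 867 in MS-1) after scaling to the spiked poly-A transcripts, which takes 0.54 off each log2 ratio.

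Of the 5 member probe sets, 2 were above background in SVEC4-10, both of them of Cxcl12, and all 5 in MS-1. For 3 of the 5 the signal was at least 4-fold lower in SVEC4-10, against 3.58% of 23074 measured probe sets. The number at least 4-fold higher in SVEC4-10 was 0 of 5, against 4.98% of measured probe sets. Since the genes were chosen on this same comparison, nothing is read from these counts.

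**Figure D1:**
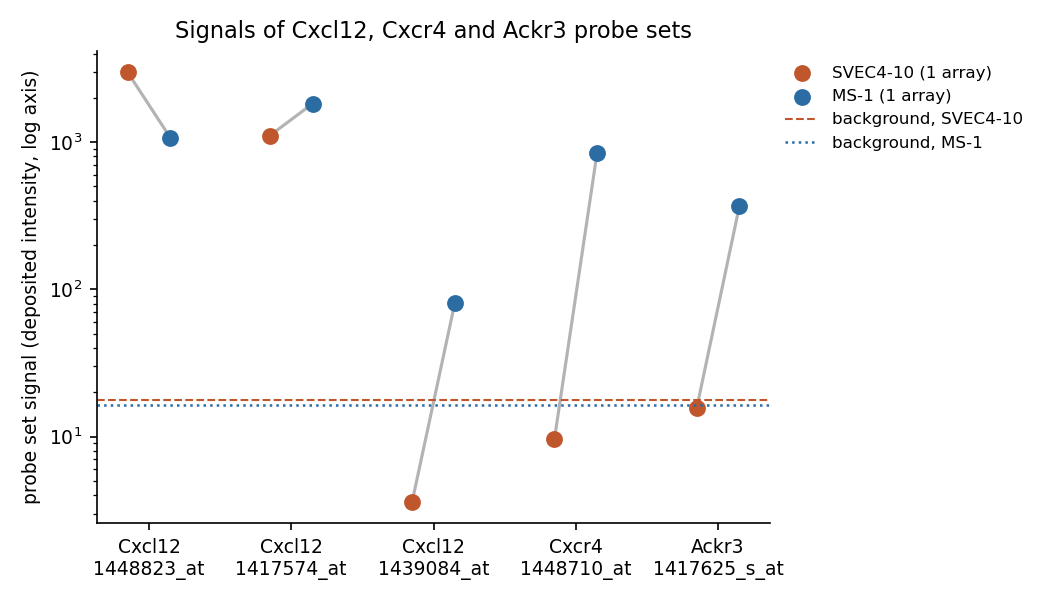
Signal of each member probe set (deposited intensity, log axis) in SVEC4-10 (left point of each pair) and MS-1 (right point), with the background of each array as a line. Both receptor probe sets and the third Cxcl12 probe set lie under background in SVEC4-10, and the first 2 Cxcl12 probe sets differ in opposite directions.

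Cxcr4, the signalling receptor (Entrez gene 12767), was measured by probe set 1448710_at. Its signal was 9.62 in SVEC4-10, below background, and 849.6 in MS-1, 52.1 times the background there. The signal was at least 48.2-fold lower in SVEC4-10 (log2 ratio -5.59). This ratio is a bound, and the spread of 0.48, taken above background on both arrays, is no error of it. With 1 probe set, the value has no second measurement of the gene to set beside it.

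Ackr3, the scavenging receptor (Entrez gene 12778), was measured by probe set 1417625_s_at. The suffix marks a probe set whose probes can match more than 1 transcript. Its signal was 15.6 in SVEC4-10, just under background, and 367 in MS-1, 22.5 times background. The signal was at least 20.8-fold lower in SVEC4-10 (log2 ratio -4.38). Both receptor genes were thus above background in MS-1 alone, but for Ackr3 this call depended on the background used. With a lower background of 11.3 in SVEC4-10, the 40th percentile of its probe sets, the Ackr3 signal lay above it and its log2 ratio of -4.55 was no bound, while the Cxcr4 signal still lay below.

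Cxcl12, the ligand (Entrez gene 20315), was above background on both arrays by 2 of its 3 probe sets, and these differed in opposite directions. Probe set 1448823_at, designed from a full-length cDNA clone, had signals of 2986 in SVEC4-10 and 1073 in MS-1. It was 2.78-fold higher in SVEC4-10 (log2 ratio 1.48). Probe set 1417574_at, designed from a RefSeq transcript, had signals of 1109 in SVEC4-10 and 1826 in MS-1. It was 1.65-fold lower in SVEC4-10 (log2 ratio -0.72). Both signals lay far above background, from 62.9 to 169 times it in SVEC4-10 and from 65.9 to 112 times in MS-1. Probe set 1439084_at, designed from an expressed sequence tag, had a signal of 3.61 in SVEC4-10, below background, and 80.9 in MS-1. It was at least 4.59-fold lower in SVEC4-10 (log2 ratio -2.20).

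The direction of Cxcl12 therefore depended on the probe set, and no single ratio is given for the gene. The brightest probe set, which represents a gene in the counts over all genes, gave 1.48. The mean of the 2 probe sets above background on both arrays gave 0.38. The mean over all 3 gave -0.48, but it includes the bound at the dim probe set and so depends on the background. The pair of bright probe sets lay 2.20 log2 units apart, 3.24 times the 0.68 expected from the spread between probe sets. Of 4813 genes with several probe sets above background on both arrays, 107 (2.22%) had a gap as large, and the median gap was 0.50. With the dim probe set included, the 3 spanned 3.68 log2 units. A span as large was found for 51 of 6110 genes with at least 2 measured probe sets (0.83%), where the median was 0.61, and for 33 of 2633 genes with at least 3 (1.25%), where it was 0.88. Ratios of at least 2-fold in both directions, as for Cxcl12, were found for 33 of the 6110 genes (0.54%). For Cxcl12 the lower of these ratios is that of the dim probe set, which is a bound. The disagreement of its probe sets was known when the genes were chosen, so these ranks describe it and are no test. RefSeq lists 3 curated transcripts of Cxcl12, and where each probe set lies on them was not analysed here.

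**Figure D2:**
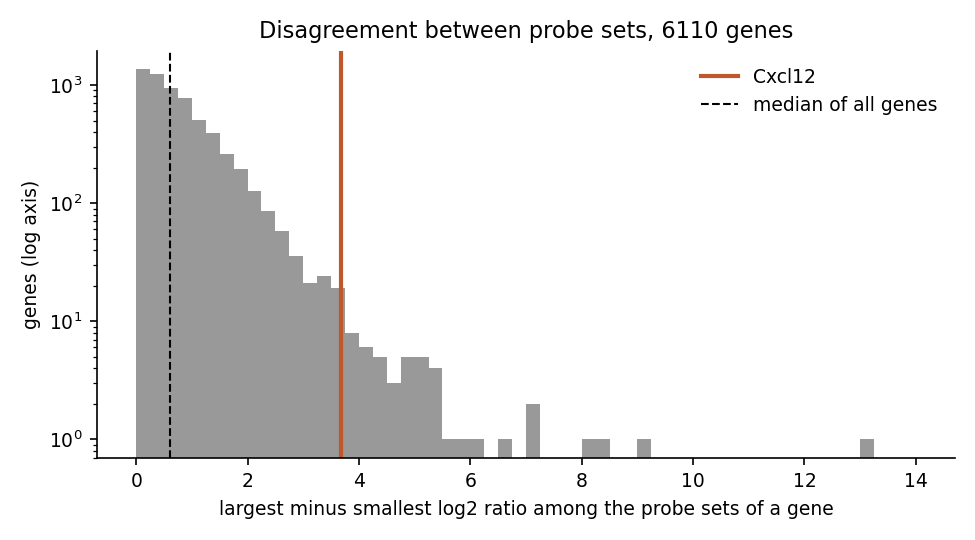
Number of genes (log axis) by the difference between the largest and smallest log2 ratio among their measured probe sets, for 6110 genes with at least 2. The span of Cxcl12, 3.68, lies in the tail, beyond the median of 0.61. The disagreement of its probe sets was known when the gene was chosen.

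Scaling and background moved the sizes of these ratios but not their direction. For each of the 5 probe sets, 6 alternatives of scaling and background were computed. The log2 ratio ranged from -6.46 to -4.59 for Cxcr4 and from -4.92 to -3.38 for Ackr3. For Cxcl12 it ranged from 0.94 to 1.52 at 1448823_at, from -1.26 to -0.70 at 1417574_at and from -4.49 to -1.20 at 1439084_at. The opposite directions at the pair of bright Cxcl12 probe sets were found under every scaling computed, including that to the poly-A controls, where the ratios were 0.94 and -1.26. The alternatives of background left these bright probe sets at 1.48 and -0.72 by construction. At Cxcr4, Ackr3 and 1439084_at the direction could hardly change under any alternative. Their signals were below background in SVEC4-10 and 4.96 to 52.1 times background in MS-1. Median centring and poly-A scaling shift both ratios by the same amount, so they cannot change the distance between them. The dim probe set was under 4-fold when the background was doubled.

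**Figure D3:**
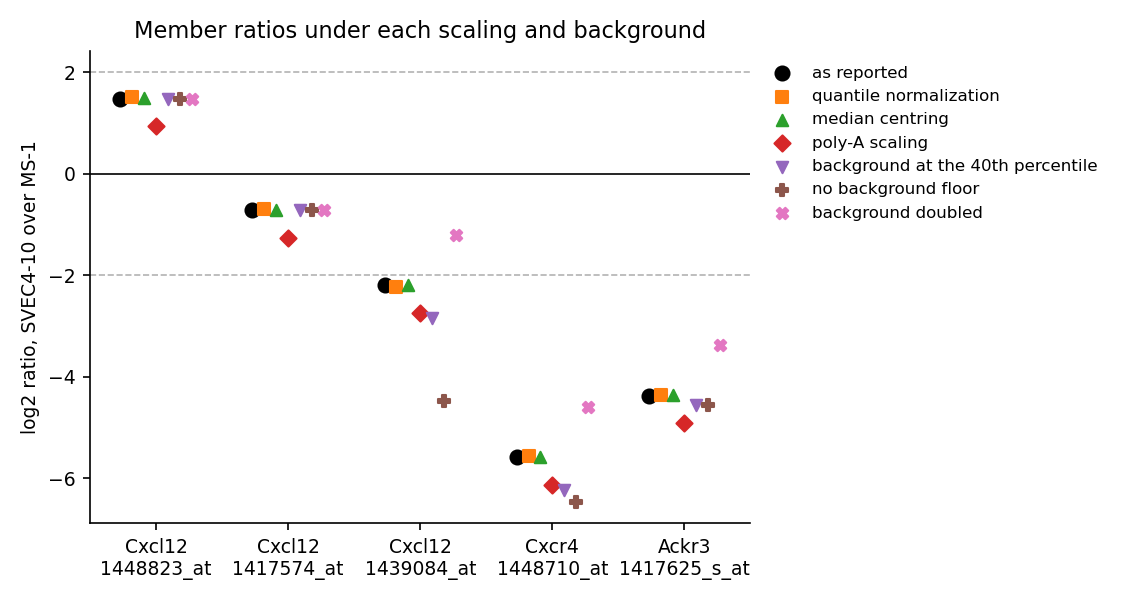
Log2 ratio of SVEC4-10 over MS-1 for each member probe set as reported (black) and under 6 alternatives (coloured symbols), with dashed lines at 4-fold. No probe set crosses 0, which these alternatives could hardly bring about at those below background in SVEC4-10. Cxcl12 1439084_at ranges most widely, from -4.49 without a background floor to -1.20 with background doubled.

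The labelled cell type was set against its markers, since the receptors are known from endothelium. For all marker lists, the shares over all measured genes were 5.60% at least 4-fold higher in SVEC4-10 and 4.20% lower. Of 17 endothelial markers, 15 were measured, and all 15 were at least 4-fold lower in SVEC4-10, where 4 were above background. Their summed signal was 266 in SVEC4-10 and 36584 in MS-1, and Pecam1, the adhesion molecule CD31, was below background in SVEC4-10 (1.27). Emcn, the sialomucin endomucin, had signals of 6.07, below background, in SVEC4-10 and 5568 in MS-1, and the surface antigen Cd34 had 103 in SVEC4-10 and 6115 in MS-1. Most endothelial markers were thus below background in the RNA labelled SVEC4-10, as were Cxcr4 and Ackr3. Fibroblast and stromal markers had the opposite pattern, with 9 of 10 measured genes at least 4-fold higher in SVEC4-10 (summed signals 27351 in SVEC4-10 and 98.1 in MS-1). The brightest, the matrix genes Dcn (7363), Col1a2 (7127) and Col1a1 (5694) in SVEC4-10, were below background in MS-1, although another Col1a2 probe set had a log2 ratio of 0.39. Mesothelial markers also had 6 of 8 higher and Krt19 lower (summed signals 15883 in SVEC4-10, 200.2 in MS-1). Their brightest were the uroplakins Upk3b (8335) and Upk1b (3693) in SVEC4-10, below background in MS-1, and mesothelin, Msln (1311 in SVEC4-10, 21.4 in MS-1). Of 9 pericyte and smooth muscle markers on the array, 5 (Rgs5, Kcnj8, Abcc9, Myh11 and Cnn1) were below background on both. Among the 4 measured, Acta2 (6446 in SVEC4-10, 48.6 in MS-1) and Tagln (3801 in SVEC4-10, below background in MS-1) were at least 4-fold higher in SVEC4-10. These genes gave nearly all of the summed signal in SVEC4-10 (10281, against 73.0 in MS-1). Des, the filament protein desmin, had 25.1 in SVEC4-10 and a signal below background in MS-1. The part of these differences in the member ratios was not tested.

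Cxcr4 is also a leukocyte gene. Of 11 leukocyte markers on the array, 1 was above background in SVEC4-10 and 4 in MS-1, with summed signals of 62.9 in SVEC4-10 and 336 in MS-1 among the measured genes. Ptprc, the pan-leukocyte antigen CD45, and the lymphocyte genes Cd3e and Cd79a were below background on both arrays. The 1 marker at least 4-fold apart was Lcp1, which bundles actin (5.63, below background, in SVEC4-10 and 213 in MS-1). Csf1r, a macrophage receptor (35.5 in SVEC4-10, 45.4 in MS-1), differed less. Coro1a, another actin-binding protein (6.17, below background, in SVEC4-10, 50.7 in MS-1), was at least 2.88-fold lower in SVEC4-10. Epithelial markers, of which 6 were measured, had 1 keratin higher (Krt8, with another probe set at a log2 ratio of 1.35) and 1 lower (Krt18), with summed signals of 224 in SVEC4-10 and 328 in MS-1. The keratin Krt14 had 40.4 in SVEC4-10 and a signal below background in MS-1. Markers of CXCL12-abundant reticular cells, the marrow stroma that makes most of its CXCL12, had 1 of 8 measured genes at least 4-fold higher in SVEC4-10. It was the transcription factor Foxc1 (signals 137 in SVEC4-10, 6.82 in MS-1). Kitl, the stem cell factor of the same cells, had signals of 568 in SVEC4-10 and 1800.4 in MS-1. Vcam1, an adhesion molecule, had 1418 in SVEC4-10 and 1226 in MS-1. Against shares of 5.60% higher and 4.20% lower over all measured genes, the few calls in the leukocyte, epithelial and reticular cell lists are not read as a result.

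Other ligands of the receptors were a small group of which 3 were measured. Adm, the peptide adrenomedullin, which ACKR3 also takes up, had a signal of 1.78 in SVEC4-10 and 467 in MS-1 and was at least 26.5-fold lower in SVEC4-10. Cxcl11, a chemokine that binds ACKR3 as well as CXCR3, had a signal of 46.1 in SVEC4-10 and was below background in MS-1, at least 2.83-fold higher. Mif, a cytokine that can bind CXCR4, had signals of 6781 in SVEC4-10 and 6612 in MS-1, a log2 ratio of 0.04.

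Of 19 other chemokine receptors on the array, 11 were below background on both arrays. Of the 8 measured, 0 were at least 4-fold apart in either direction (median log2 ratio 0.10, against 0.02 over all measured genes). That median lies between Ccr6 and Ccr10, both above background in MS-1 alone (16.5 each). Their SVEC4-10 signals were raised to the background of 17.6, so the sign of the median comes from the backgrounds. With 5.60% of all measured genes called higher and 4.20% lower, 0 of 8 is near the share over all genes and says nothing particular to the family. Apart from Ackr4, none had a signal of 4 times background on either array. The count was thus largely fixed by low signals. Ackr4, a scavenger of CC chemokines, had the largest ratio, with signals of 66.3 in SVEC4-10 and 18.7 in MS-1 (log2 ratio 1.83), followed by Ccrl2, an atypical receptor, with 41.1 in SVEC4-10 and a signal below background in MS-1. Cxcr3, the receptor of interferon-induced chemokines, was above background in MS-1 alone (32.4), and Cxcr6, the receptor of CXCL16, in SVEC4-10 alone (27.1).

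Among genes that hold or cut CXCL12 outside the cell, differences of at least 4-fold were found in both directions. For this list and each list below, the shares over all measured genes were 5.60% higher in SVEC4-10 and 4.20% lower. Of 9 measured heparan sulfate core proteins, 4 were at least 4-fold higher in SVEC4-10 and 1 lower (median 1.28). Gpc1, a glypican, had a signal of 312 in SVEC4-10 and was below background in MS-1, at least 19.2-fold higher. Agrn, the basement membrane proteoglycan agrin, had signals of 672 in SVEC4-10 and 43.1 in MS-1, but another Agrn probe set had a log2 ratio of 1.04. The syndecans Sdc4 (326 in SVEC4-10, 30.1 in MS-1) and Sdc2 (765 in SVEC4-10, 128 in MS-1) were higher, although further probe sets gave -0.25 for Sdc4 and 1.82 for Sdc2, and Sdc3 was lower (46.5 in SVEC4-10, 231 in MS-1), with probe sets from -2.31 to 0.13. Of 16 measured enzymes that make or edit heparan sulfate, 4 were higher and 1 lower (median 0.26). Hs6st2, a 6-O-sulfotransferase, had signals of 2939.9 in SVEC4-10 and 78.5 in MS-1, with log2 ratios from 1.50 to 5.23 over 3 probe sets. Sulf2, which removes 6-O-sulfates at the cell surface, had 132 in SVEC4-10 and 844 in MS-1 and was 6.38-fold lower, with log2 ratios from -2.67 to -1.05 over 3 probe sets. Ext1, a chain polymerase, Hs3st1, a 3-O-sulfotransferase, and Hpse, heparanase, were 4.43-fold, 5.23-fold and at least 4.34-fold higher. Of 6 measured proteases that can cut CXCL12, Mmp13 and Mmp3, both matrix metalloproteinases, were at least 4-fold higher in SVEC4-10 (1028 for Mmp13, 830.1 for Mmp3, both below background in MS-1), and 0 were lower (median 0.61). Mmp14, a membrane-bound metalloproteinase, had 1604 in SVEC4-10 and 691 in MS-1, and Elane, neutrophil elastase, was above background in MS-1 alone (33.3). Dpp4, the peptidase that inactivates CXCL12 at its N-terminus, was below background on both arrays.

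The machinery that couples the receptors to the cell was largely measured on both arrays. Of 16 G protein subunits, 2 were at least 4-fold higher in SVEC4-10 and 1 lower (median -0.17). Among the inhibitory alpha subunits that CXCR4 uses, Gnai2 (2097 in SVEC4-10, 2377 in MS-1) and Gnai3 (1268 in SVEC4-10, 1324 in MS-1) differed by at most 1.13-fold between the arrays, and Gnai1 had 1045 in SVEC4-10 against a signal below background in MS-1, at least 64.2-fold higher, and its 3 probe sets had log2 ratios of 2.63 and above. Gng11, a gamma subunit, had signals of 36.6 in SVEC4-10 and 5141 in MS-1, 140.5-fold lower in SVEC4-10. Gnb4, a beta subunit, was 5.63-fold higher, and Gnaq, an alpha subunit, had 183 in SVEC4-10 and 441 in MS-1.

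Both arrestins, the proteins ACKR3 recruits, differed, and in opposite directions. Arrb1 had signals of 60.4 in SVEC4-10 and 643 in MS-1, 10.7-fold lower, and Arrb2 had 234 in SVEC4-10 and 48.8 in MS-1, 4.80-fold higher, and log2 ratios of 2.26 and 2.43 by its probe sets. They were the 2 genes at least 4-fold apart among 6 measured GRKs and arrestins (median 0.06). The receptor kinases Grk5 (172 in SVEC4-10, 377 in MS-1) and Grk6 (422 in SVEC4-10, 252 in MS-1) differed less. Of 11 measured RGS proteins, which shorten G protein signals, 1 was higher and 2 were lower (median -1.27). Rgs16 was below background in SVEC4-10 with a signal of 347 in MS-1, at least 19.7-fold lower. Rgs2 (17.6 in SVEC4-10, 383 in MS-1) was 21.7-fold lower, but its SVEC4-10 signal barely exceeded background, so this is close to a bound. Rgs10 (2095 in SVEC4-10, 147 in MS-1) was 14.2-fold higher. Rgs12 had 191 in SVEC4-10 and 637 in MS-1, with log2 ratios from -1.74 to 0.45 over 3 probe sets. Of 14 genes that ubiquitinate and sort CXCR4, all were above background on both arrays and 0 were at least 4-fold apart (median -0.34). With 5.60% of all measured genes called higher and 4.20% lower, 0 of 14 is near the share over all genes. Itch, the ubiquitin ligase of CXCR4, had signals of 149 in SVEC4-10 and 216 in MS-1. The largest ratios were those of Rab11a, a GTPase of recycling endosomes (1754 in SVEC4-10, 3470 in MS-1), and Dtx3l, a ubiquitin ligase (300.1 in SVEC4-10, 153 in MS-1). They were followed by the endosomal sorting proteins Stam (267 in SVEC4-10, 507 in MS-1) and Hgs (332 in SVEC4-10, 524 in MS-1).

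Of 32 measured kinases, adaptors and GTPases downstream of CXCR4, 2 were at least 4-fold higher in SVEC4-10 and 4 lower (median -0.32). Vav3 (40.3 in SVEC4-10, 265 in MS-1) and Prex1 (7.84, below background, in SVEC4-10, 87.2 in MS-1), both exchange factors for Rac, and Elmo1 (74.2 in SVEC4-10, 406 in MS-1) and Dock1 (222 in SVEC4-10, 1200.0 in MS-1), which act as a pair in Rac activation, were lower, although another Elmo1 probe set had a log2 ratio of -1.58. Pik3r1, the regulatory subunit of PI3 kinase (452 in SVEC4-10, 63.5 in MS-1), and Akt2, a kinase (335 in SVEC4-10, 60.5 in MS-1), were higher, and their smallest log2 ratios by any probe set were 0.86 and 1.33.

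Of 21 measured genes known to regulate the transcription of the 3 members, 2 were at least 4-fold higher in SVEC4-10 and 3 lower (median -0.18). The shares over all measured genes were 5.60% and 4.20%, so these few calls are not read as a result about the list. Klf2, a flow-responsive factor of endothelium, had signals of 120 in SVEC4-10 and 2361 in MS-1, 19.7-fold lower. Epas1, the hypoxia-inducible factor HIF-2 alpha, had 122 in SVEC4-10 and 808 in MS-1, 6.62-fold lower, and Foxc2 had 22.4 in SVEC4-10 and 90.9 in MS-1. Foxc1, known to maintain CXCL12 in marrow stroma, and Twist1, a mesenchymal factor, were at least 8.40-fold and at least 12.9-fold higher. Hif1a, the other hypoxia-inducible alpha subunit, had 2755 in SVEC4-10 and 2916 in MS-1, a log2 ratio of -0.08, and Nrf1, whose core lies in the Cxcr4 promoter, had 105 in SVEC4-10 and 131 in MS-1.

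Cxcr4, Ackr3 and Cxcl12 are all described as hypoxia-induced genes. Of 18 other listed targets of hypoxia-inducible factors, 3 were at least 4-fold lower in SVEC4-10 and 0 higher (median -0.38). They were Adm, Egln3, a prolyl hydroxylase of these factors (56.7 in SVEC4-10, 1291 in MS-1), and Slc2a1, the glucose transporter GLUT1 (714 in SVEC4-10, 3546 in MS-1). Vegfa, the angiogenic growth factor, had signals of 330.1 in SVEC4-10 and 124 in MS-1. In the tip cell and arterial list, 23 genes were on the array. Of these, 6 (Gja4, Gja5, Hey2, Sox17, Bmx and Aplnr) were below background on both arrays. Among the 17 measured, 8 were at least 4-fold lower, 2 higher and 7 neither (median -1.69). Apln, a peptide of tip cells, was among the 8 (40.8 in SVEC4-10, 6093 in MS-1). So were Angpt2, the vessel growth factor angiopoietin-2 (34.2 in SVEC4-10, 3699 in MS-1), and the receptor Notch4 (12.5, below background, in SVEC4-10, 1150.3 in MS-1), but another probe set had a log2 ratio of -0.0099 for Angpt2 and -0.90 for Notch4. Nid2, a basement membrane nidogen (610.4 in SVEC4-10, 15.9, below background, in MS-1), and Unc5b, a guidance receptor (753 in SVEC4-10, 96.9 in MS-1), were higher.

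**Figure D4:**
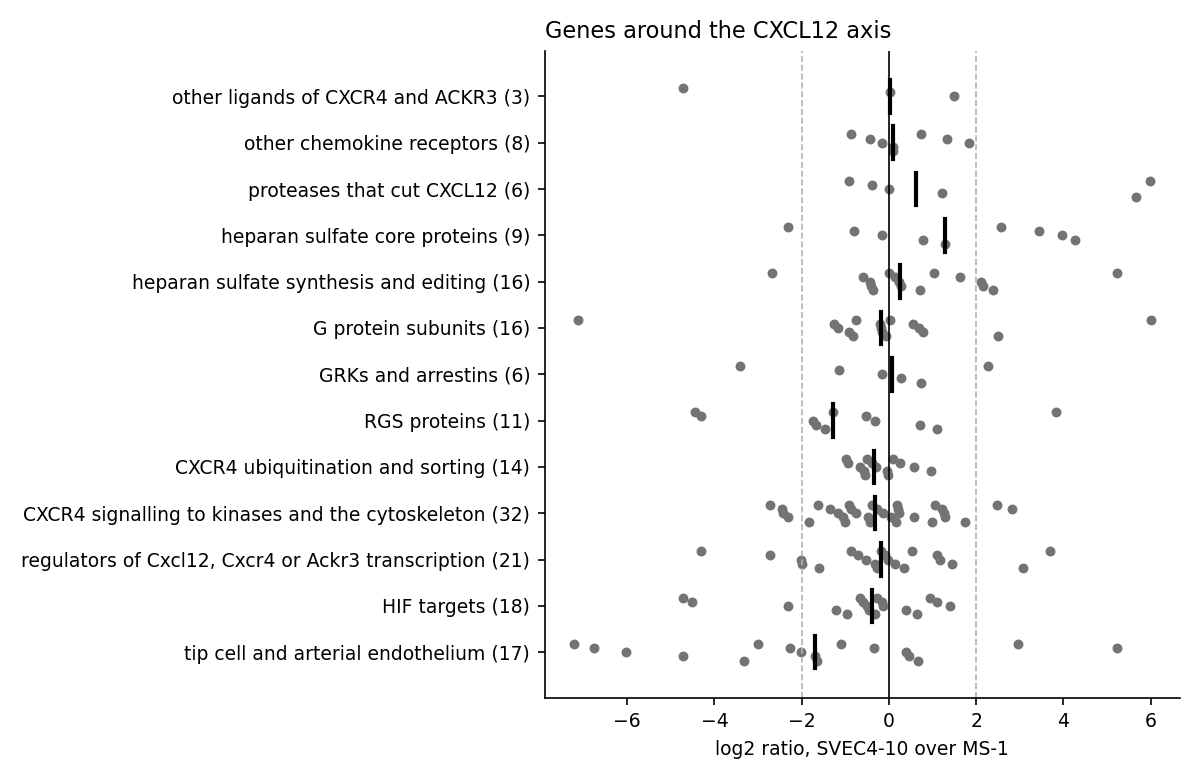
Log2 ratio of SVEC4-10 over MS-1 for every measured gene (grey points) of 13 lists around the CXCL12 axis, with the median of each list as a bar and dashed lines at 4-fold. Numbers in brackets are measured genes. Other chemokine receptors and CXCR4 sorting genes all lie between the dashed lines. All of these receptors but Ackr4 had signals too low to reach 4-fold over background. Over all measured genes, 5.60% were at least 4-fold higher in SVEC4-10 and 4.20% lower.

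The medians of 4 of the 13 lists changed sign with scaling to the poly-A controls: other ligands (-0.50), other chemokine receptors (-0.45), heparan sulfate enzymes (-0.28) and GRKs and arrestins (-0.48). For other chemokine receptors the median is set by the backgrounds under either scaling, so its change of sign says nothing of expression. Quantile normalization and median centring changed the sign of none of the 13. Poly-A scaling also moved the counts at 4-fold. Heparan sulfate enzymes then had 1 higher gene in place of 4, G protein subunits 1 in place of 2, kinases and adaptors 1 in place of 2, and GRKs and arrestins 0 in place of 1. RGS proteins had 5 lower genes in place of 2, and kinases and adaptors 6 in place of 4. Regulators of transcription had 5 lower genes in place of 3, and the tip cell and arterial list 10 in place of 8. Among marker lists, fibroblast markers had 8 higher genes in place of 9, mesothelial markers 5 in place of 6 and epithelial markers 0 in place of 1. Leukocyte markers had 2 lower genes in place of 1, and reticular cell markers 1 in place of 0. With quantile normalization, G protein subunits had 2 lower genes in place of 1, and regulators of transcription 4 in place of 3. Sdc3, Hpse, Gnai2, Gnai3, Itch, Dock1, Prex1, Foxc2, Hif1a, Nrf1, Unc5b, Krt19, Dpp4, Ptprc, Cd3e and Cd79a lie outside the naming rule and were named after their values were seen. So do Gja4, Gja5, Hey2, Sox17, Bmx, Aplnr, Rgs5, Kcnj8, Abcc9, Myh11, Cnn1, Ccr6 and Ccr10.

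The genes with the most similar pair of signals were found by the distance over the log2 signals of both arrays, with signals under background raised to it. Genes whose measured probe sets had log2 ratios of opposite sign were left out of those compared. Cxcl12 itself has such probe sets and was placed by its brightest alone. For Cxcr4 and Ackr3, where the SVEC4-10 signals of the member and of its nearest genes were all raised in this way, the distance is the difference in MS-1 alone, a likeness over 1 point. For Cxcl12 it is a likeness over 2 points. For Cxcr4 the nearest genes were Fez1 (827 in MS-1), Ccn3 (824) and Dysf (824), all below background in SVEC4-10, at distances of 0.04 each among 10561 genes. For Ackr3 they were Lyl1 (368), Hoxd10 (368) and Pbp2 (366), below background in SVEC4-10 too, at distances of 0.0019 to 0.0058. For Cxcl12 by 1448823_at they were Cyb5a (3384 in SVEC4-10, 1091 in MS-1), Ndufa2 (2903 in SVEC4-10, 1231 in MS-1) and Dap (3578 in SVEC4-10, 1061 in MS-1), at 0.18, 0.20 and 0.26.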

How the data were processed

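Total RNA of 1 culture per line (SVEC4-10 and MS-1) was labelled with biotin from 6 µg for Affymetrix arrays, per the labels' protocols. The authors deposited a linear intensity for each probe set. How probe signals were summarised is not given in the sources used here. Intensities were used as deposited. Gene names came from the platform annotation, brought up to date with RefSeq (GRCm38.p6) for 34741 of 34945 probe sets assigned to 1 gene. Among all 45101 there were also 64 controls, 932 probe sets with several genes, left out, and 9160 unnamed here.

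Values under background were raised to it before the log2 ratio was taken. A gene was represented by its brightest measured probe set outside the _x_at class. Genes were called at 4-fold, and no test was run. Steps were tested on simulated arrays. Named genes were all member probe sets, the up to 4 largest ratios in each of 13 pathway lists, the 3 brightest of each of 7 marker lists and the 3 nearest genes of each member. Of 235 pathway entries, 220 were on the array with a probe set of their own, and of 76 marker entries 75; the others were not analysed here. The members and lists were chosen with earlier results of these data known. Python 3.11.15, numpy 2.4.6 and pandas 2.3.3 were used. The number of arrays limits the precision.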

Additional observations from a re-analysis of the deposited data

How the results depend on the processing

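No paired analysis was possible because each line has 1 array and no test was made. A ratio was said to move if it changed by more than the spread between probe sets, 0.48. Cxcr4 gave -6.13 with poly-A scaling, -6.23 with background at the 40th percentile, -6.46 without a background floor and -4.59 with background doubled. Ackr3 gave -4.92 with poly-A scaling and -3.38 with background doubled. These alternatives shift the ratios by construction. Ackr3 has no probe set of the specific class, so that alternative gave no value. Cxcl12 by its brightest probe set, 1.48, gave 0.94 with poly-A scaling. It turned to -0.48 as the mean over probe sets, which includes the bound at the dim probe set. By the probe set of smallest ratio, another one, it turned to -0.72. The span of its probe sets, 3.68, was 4.31 with background at the 40th percentile, 5.96 without a floor and 2.68 with background doubled. Genes called higher in SVEC4-10 numbered 1064 without a floor, 1904 at 2-fold and 342 at 8-fold. Those called higher in MS-1 numbered 924 without a floor, 867 with poly-A scaling, 1506 at 2-fold and 279 at 8-fold. Low signal limits the receptor ratios to lower bounds, except that with background at the 40th percentile Ackr3 was above it in SVEC4-10 and its ratio, -4.55, was no bound.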
